A study of Mus musculus with 2 samples.

Results

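Intergenic transcription in the embryonic mouse brain was examined through 44302 contigs, stretches of continuous read coverage on 1 strand of the genome, that lay more than 10 kb from every annotated gene. They were drawn from 830022 contigs on the mouse build mm9. Of these, 424626 had a reproducibility value of 0.1 or less. That value is a fraction the authors computed for each contig, and low means reproducible. Whether each replicate gave a contig cannot be seen, since levels were deposited for both together. Of those 424626 contigs, 341154 overlapped a gene of the Ensembl 65 annotation on either strand, 39170 lay within 10 kb of a gene, and the remaining 44302, or 10.4%, are called far contigs below. The far contigs were chosen by the reproducibility value and the position, so neither is a result, and the contig level, which was not used, is given as a description with no test. The highest reproducibility value among the far contigs was 0.0900, and the next value among the contigs left out was 0.130. The 1645 far contigs 10 to 11 kb from a gene had a median level of 0.0810, and the 1729 contigs 9 to 10 kb from a gene, which were left out, had 0.0800. The 114909 contigs beyond 10 kb that missed the reproducibility threshold had a median level of 0.0420.

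Most of a mammalian genome lies outside annotated genes, and RNA from such stretches can come from long noncoding RNA genes, from distal first exons and introns of protein-coding genes, from transcription that runs on past a gene's end, from enhancers or from repeated sequences and copies of genes. In a polyadenylated library the exons of a spliced RNA give tall, short blocks of coverage, while introns of unfinished transcripts give long, low stretches. Genes of the nervous system are known for very long introns and for alternative promoters that lie far upstream of the main start.

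The study sequenced whole-brain RNA of C57BL/6J mouse embryos, taken at embryonic day 14.5, in 2 libraries, replicates 1 and 2 of a single group with no genotype change or treatment. The labels number the libraries as biological replicates and describe littermates of mixed sex. They do not say how the animals were divided over the libraries, so a biological and a technical difference between libraries cannot be told apart. With a single group no contrast exists, and contigs share their 2 libraries, so no p-value was computed. Expected counts on annotated genes came to 103493289 (replicate 1) and 97539730 (replicate 2). Of 105 neural transcription factor genes listed for this tissue, 104 reached a mean of 1 TPM (transcript abundance scaled to the same total in each library). Contig levels were deposited for both replicates together. The junction counts and the RPKM values (reads scaled by length and library size) on mm9 come as a first and a second value that the files do not tie to a replicate number, and only the TPM values below carry one.

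The sequences that tie far contigs to transcripts are shown first. No mm9 sequence was at hand, so the letters come from annotations on GRCm38, the later mouse build, and belong to genes found by an exact match of intron length on the same strand between the same flanking genes; no coordinate was converted. Far contigs lay in introns of 3 genes that Ensembl 65 drew much shorter, and the promoters shown start vM21 transcripts whose first intron had the length of such a junction: 487 kb for Nkain2 (97 and 62 reads), 182 kb for B3galt1 (38 and 51 reads) and 4.62 kb for Nav2 (22 and 45 reads). Nkain2 encodes a membrane protein that binds the sodium pump, B3galt1 a galactosyltransferase of the Golgi and Nav2 a neuron navigator protein of the growing axon. Their RefSeq promoters on GRCm38.p6 lie at chr10:32889866-32890165 on the minus strand for Nkain2, chr2:67565439-67565738 on the plus strand for B3galt1 and chr7:48958823-48959122 on the plus strand for Nav2. Each is 300 bases long, and capitals mark the 50 bases from the transcript start onwards.
Nkain2: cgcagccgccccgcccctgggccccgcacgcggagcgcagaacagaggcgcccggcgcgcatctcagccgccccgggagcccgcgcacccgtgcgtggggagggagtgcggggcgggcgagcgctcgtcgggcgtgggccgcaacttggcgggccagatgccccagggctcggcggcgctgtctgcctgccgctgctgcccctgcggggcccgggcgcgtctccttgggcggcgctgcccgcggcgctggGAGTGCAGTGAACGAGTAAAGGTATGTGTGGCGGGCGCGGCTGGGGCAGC
B3galt1: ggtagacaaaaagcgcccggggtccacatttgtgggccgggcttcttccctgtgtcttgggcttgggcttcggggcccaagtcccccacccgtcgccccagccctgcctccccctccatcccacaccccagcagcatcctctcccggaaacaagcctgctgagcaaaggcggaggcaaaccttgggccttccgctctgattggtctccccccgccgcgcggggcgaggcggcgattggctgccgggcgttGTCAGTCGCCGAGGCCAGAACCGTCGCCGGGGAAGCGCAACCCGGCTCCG
Nav2: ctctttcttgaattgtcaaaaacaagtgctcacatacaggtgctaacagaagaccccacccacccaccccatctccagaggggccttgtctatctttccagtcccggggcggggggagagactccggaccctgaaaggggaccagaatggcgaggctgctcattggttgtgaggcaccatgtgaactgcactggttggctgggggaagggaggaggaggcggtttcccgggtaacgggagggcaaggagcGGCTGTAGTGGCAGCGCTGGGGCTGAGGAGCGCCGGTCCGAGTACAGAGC
The dinucleotide CG occurred 43 times in the window of Nkain2, 26 times in that of B3galt1 and 12 times in that of Nav2, against a median of 7 over 32851 RefSeq promoters of the same length. The Nkain2 window held as many or more than 97.8% of all promoters, the B3galt1 window 84.5% and the Nav2 window 62.1%. GC content was 78.7% for Nkain2, 69.0% for B3galt1 and 60.7% for Nav2, against a median of 52.7%.

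Exon joints of 6 noncoding genes that Ensembl 65 did not hold show the spliced product whose intron length was met by a junction touching or spanning far contigs. Each joint gives 30 bases on either side, taken from GENCODE vM21 transcripts, with the exon after the intron in capitals.
Gm17750: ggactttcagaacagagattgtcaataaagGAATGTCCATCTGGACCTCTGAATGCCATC
Snhg14: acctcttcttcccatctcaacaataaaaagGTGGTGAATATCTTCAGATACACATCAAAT
B130024G19Rik: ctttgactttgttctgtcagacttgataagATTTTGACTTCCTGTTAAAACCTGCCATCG
1110015O18Rik: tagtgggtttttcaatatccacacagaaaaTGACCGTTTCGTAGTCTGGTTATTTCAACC
Gm29260: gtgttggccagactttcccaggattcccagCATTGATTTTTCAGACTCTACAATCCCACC
Pantr2: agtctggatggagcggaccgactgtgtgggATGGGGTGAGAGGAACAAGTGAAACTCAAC
The junction of Gm17750 had 1998 reads in the first and 1108 in the second value, and that of Snhg14, the long RNA of an imprinted region that hosts small nucleolar RNAs, had 203 and 164. The junctions shown for Gm29260 and for Pantr2 had 100 and 24, and 130 and 38 reads.

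Far contigs were mostly low and short, and a small number of them carried most of the coverage. Their level had a median of 0.0850, with quartiles of 0.060 and 0.145, a 99th percentile of 4.06 and a maximum of 4700. Over 38396 contigs at level 1 or more, summed coverage divided by length and level gave a median of 58 (57.7 to 58.3), so that a level of 1 corresponds to a mean coverage of 58 reads per base. The median level was 0.0800 for contigs within 10 kb of a gene and 0.108 for contigs overlapping a gene. Far contigs had a median length of 595 bases and ranged from 10 to 87892, against medians of 622 and 820 bases in those other contigs. Far contigs covered 45.4 Mb and held 1.68% of the summed coverage of all 830022 contigs, against 1.05% within 10 kb of genes and 96.9% overlapping genes. The highest contig alone held 14.6% of the coverage of the far contigs, the top 20 by coverage held 35.7%, and the top 1000 held 71.7%.

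High contigs and long contigs each held much of the coverage. The 221 far contigs at a level of 10 or more held 42.8% of it. Their median length was 52.0 bases, but the 71 of them with 200 bases or more held 38.0% of the far coverage, and all far contigs under 100 bases held 2.32%. The 329 contigs of 10000 bases or longer had a median level of 0.388 and 18.3% of the coverage, and contigs of neither kind held 40.2%. The median distance to the nearest gene was 42.0 kb (quartiles 19.5 and 103 kb), and 19934 far contigs (45.0%) lay more than 50 kb and 590 more than 500 kb from any gene, up to 1031 kb.

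**Figure D1:**
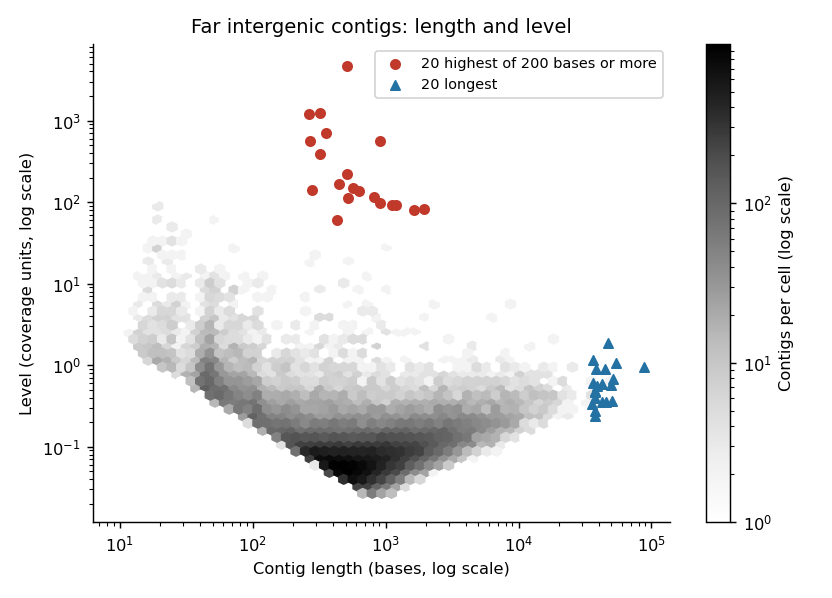
Length in bases (horizontal, log scale) and level (vertical, log scale) of the 44302 far contigs, shaded by the number of contigs per cell. The 20 highest of 200 bases or more (red circles) are between 267 and 1937 bases long, while the 20 longest (blue triangles) start at 35980 bases and lie between levels of 0.240 and 1.86.

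The highest far contigs were short, isolated blocks. Among the 39227 of 200 bases or more, the 20 highest had levels down to 60.7 and lengths of 267 to 1937 bases, and 18 of them had no other far contig within 10 kb on their strand. The highest of all, chr3:5860318-5860831 on the plus strand (514 bases), had a level of 4700 and lay 284 kb from Pex2, a gene of peroxisome assembly, and 478 kb from ENSMUSG00000077066. The de novo model over it had RPKM values of 148 and 405. The next were chr14:105114985-105115307 on the minus strand at a level of 1250, 193 kb from the nearest coding gene Rnf219, and chr18:68851709-68851975 on the plus strand at 1200, 263 kb from Mc2r, the receptor for adrenocorticotropic hormone. At chr8:15519771-15520128 on the plus strand the level was 701, and the nearest coding gene was Csmd1, a large complement-regulating membrane protein, 372 kb away. Of the 20, 7 lay on the strand of the nearest coding gene. A shorter contig of 153 bases, chr9:110183737-110183889 on the plus strand, had a level of 2400. It lay 18.7 kb from Cspg5, a proteoglycan of neurons, and 23.8 kb from Elp6. Between these neighbours, on the same strand, GENCODE vM21 places Mir6236, a microRNA entry of 123 bases listed at 0 TPM in both libraries.

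The other readouts did not rank these blocks as the level did. All 20 were overlapped by a de novo model on their strand, but the model RPKM ranged from 0 to 405. The contig at level 1200 had 0 in both values, and the contig at level 1250 had 1.39 and 3.51. Junction ends touched 11 of the 20. The 20 highest contigs and the 15 clusters with the most coverage made 29 distinct loci. Of these, 17 had both flanking genes in GENCODE vM21 too, and between these neighbours, on the strand of the contigs, that annotation held 14 processed pseudogenes, genomic copies of spliced mRNAs, at 10 of the 17, among them the long runs upstream of Robo1 and Nav3. How many other intergenic intervals of such width hold one was not counted. The contig chr1:104524662-104524930 on the minus strand (269 bases, level 569) lay between Gm23036 and Gm22034, where vM21 places the processed pseudogene Gm20281 of 267 bases. Its model had 23.6 and 81.9 RPKM, whereas Gm20281 was listed at 0 TPM in both libraries. Between Tram1l1 and 1700006A11Rik, where a contig of 1201 bases reached a level of 91.6, the pseudogene Gm4617 had 5.87 TPM in replicate 1 and 13.4 TPM in replicate 2. Reads from near-identical copies can be placed at more than 1 of them, and how such reads were placed is not stated in the labels or files, so these levels are uncertain. The part of shared reads in them was not tested.

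Far contigs were spread unevenly over the chromosomes. Chromosome 8 held the most, 3841, which was 16.8% of its contigs at the threshold and 29.2 per Mb. Chromosome 16 had the highest share, 18.4% (2538 contigs, 28.1 per Mb). The lowest shares on nuclear chromosomes were 5.70% on chromosome 2 and 5.93% on chromosome 19, against a median over chromosomes of 10.3%. None of the 8 mitochondrial contigs was far from a gene. Chromosome 3 held 20.6% of the far coverage; the highest contig alone gave 14.6%.

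Neighbouring far contigs formed long runs. Chained on the same strand with gaps of up to 10 kb, they made 12034 clusters, of which 7691 were single contigs. The 776 clusters of 10 or more contigs held 53.5% of the far contigs and 39.8% of their coverage, with a median span of 33.8 kb, and 40 clusters of 100 or more held 16% of the contigs. The cluster with the most contigs, chr8:50671414-51637485 on the minus strand, had 511 and spanned 966 kb, with Tenm3 the nearest coding gene. The longest, chr16:5763899-6799185 on the plus strand, spanned 1035 kb in 219 contigs, which covered 994 kb of it, and ended 10.1 kb before the annotated start of Rbfox1. A far contig on the other strand lay within 1 kb of 4767 far contigs (10.8%), and 3432 overlapped one.

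The runs followed the strand of the neighbouring coding gene more often than single contigs did. Of the far contigs, 61.2% lay on the strand of their nearest coding gene, 30.5% upstream of its start and 30.7% downstream of its end. The same share was 50.5% for clusters of 1 contig, 63.1% for clusters of 10 or more and 77.5% for clusters of 100 or more (31 of 40, of which 19 were upstream). Contigs and clusters come from the same 2 libraries, and these shares carry no test.

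Splice junctions touched few far contigs, and mainly the high ones. A junction end, at a junction reproducibility value of 0.1 or less, fell within 5 bases of 2009 far contigs (4.53%), through 2949 of 220122 junctions. The share was 0.252% in the lowest quartile of far contig level, 1.21% and 3.77% in the next ones and 13.1% in the highest. In the same level ranges, contigs overlapping genes gave 0.343%, 1.32%, 5.97% and 64.2%, and contigs within 10 kb of genes gave 0.183%, 0.743%, 3.30% and 15.7%. Far and gene-overlapping contigs therefore stood close at low levels and apart in the highest range, which has no upper bound and within which their levels differed too.

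**Figure D2:**
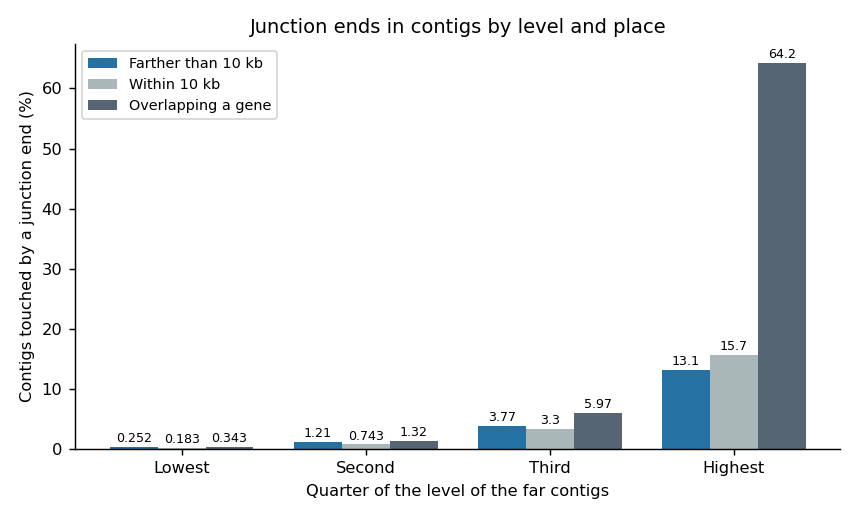
Percent of contigs touched by a junction end (vertical axis) in the 4 quartile ranges of the level of far contigs (horizontal axis), for far contigs (blue), contigs within 10 kb of a gene (light grey) and contigs overlapping a gene (dark grey). In the highest range the bars stand at 13.1%, 15.7% and 64.2%.

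Junctions joined far contigs to each other more than to genes. Both ends lay in far contigs for 1785 of the 2949 junctions, including 637 within a single contig, 418 ended in a gene and 746 ended elsewhere. Of the 1785, 146 lay within 100 kb of the lowest contig of a chromosome, 76 of them on chromosome 11 with 22347 and 10084 reads and 66 on chromosome 4 with 26655 and 11633 reads. The other 1639 had 31008 and 27511 reads in all. The first values at the 2 chromosome ends were thus above the second by more than in the rest.

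On the same strand, 357 junctions joined a far contig to 246 genes, with the far contig upstream for 153 genes and downstream for 98. Ercc8, a factor of transcription-coupled DNA repair, was joined to an upstream far contig across 203 kb by 854 and 636 reads. Smarcd3, a subunit of the BAF chromatin remodelling complex, was joined across 23.7 kb by 767 and 678 reads. Tubb2a, a beta-tubulin, was joined across 12.6 kb by 430 and 333 reads. In all, 227 introns that held far contigs and started outside Tubb2a entered it, with 9982 and 7406 reads. The one with the most reads (5084 and 4082) started within Tubb2b, a neighbouring beta-tubulin gene. The part of reads shared between these genes was not tested. Gpr161, a receptor of the primary cilium that restrains Hedgehog signalling, had 3 junctions to upstream far contigs with 309 and 280 reads. Not all junctions were as even. An upstream junction of Scube1, a secreted protein with CUB and EGF repeats, had 0 reads in the first and 778 in the second value. Of all junctions touching far contigs, 144 had 0 reads in 1 of the values. Downstream far contigs were joined to Peak1 by 10 junctions with 134 and 329 reads.

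Many far contigs that no junction touched lay inside an intron. On their own strand, 14618 far contigs (33.0%) lay inside the interval removed by a junction, whereas 5.32% lay inside an interval of the other strand. With junctions of 10 or more reads alone, the shares were 26.5% and 3.94%. The share was 52.9% in clusters of 10 or more and 4.55% in clusters of 1. The 3029 introns that held far contigs had a median length of 83.5 kb and a median of 14.0 reads. For 6444 far contigs (14.5%) such an intron had an end in a gene. Of the far contigs, 3928 (8.87%) lay in an intron that started outside a gene and ended in it, which 356 genes received. Such a start can lie in another gene, and 929 of the 3029 introns had both ends in genes. Among the 356 were tubulin genes with many such introns, 142 for Tuba1a and 112 for Tuba1c. The part of reads shared between similar genes was not tested, so the 356 are not a count of distal starts. Contigs touched by a junction end or inside an intron held 70.8% of the far coverage. That share includes single high blocks that were touched but lay in no intron. Among them were the highest contig, with 14.6% of the far coverage, and chr6:3150764-3151672, with 3.09%.

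Genes reached from outside were often longer in the later annotation. Of the 319 such genes with an entry in GENCODE vM21, 91 (28.5%) were at least 10 kb longer there than in Ensembl 65. Among all 32620 genes with such an entry, whatever their kind, 870 (2.67%) were. The sets were not matched for the kind of gene, and no share was computed among coding or expressed genes alone. Genes entered by an intron that started in another gene were kept in. How much of the difference between these shares goes with the kind of gene was therefore not tested. Genes with many far contigs in introns of their strand, not all of them among the 319, give the sizes. Rbfox1, a neuronal splicing regulator, spanned 1526 kb in vM21 and 603 kb in Ensembl 65. Lsamp, an adhesion protein of limbic neurons, spanned 2197 kb against 649 kb. Chrm3, a muscarinic acetylcholine receptor, spanned 485 kb against 1.95 kb, and B3galt1 557 kb against 18 kb. Nkain2 spanned 1201 kb against 0.558 kb. Its 487 kb intron ended in ENSMUSG00000069671, a separate Ensembl 65 gene of 72.6 kb, and the far contigs in that intron lay downstream of the short Nkain2 entry. Ppargc1a, a coactivator of mitochondrial genes, had 113 kb in both, although an intron of 364 kb with 25 and 27 reads entered it from outside.

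Robo1, the axon guidance receptor for Slit proteins, had the multi-contig cluster with the most coverage. At chr16:72027603-72647113 on the plus strand, 118 far contigs covered 594 kb of 620 kb, ended 16.3 kb before the annotated start, and had a median level of 0.244. Consecutive introns of 118 kb (141 and 244 reads), 418 kb (176 and 296 reads) and 178 kb (330 and 404 reads) spanned it, the last ending inside Robo1. Only the 178 kb intron had a vM21 intron of equal length, in Robo1. Of the 122 far contigs upstream on its strand, 116 (95.1%) lay inside an intron. Robo1 itself had 48.8 ± 15.9 TPM (SD, n = 2).

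Rbfox1 and Nav3 showed the same arrangement. Upstream of Rbfox1, introns of 321 kb (203 and 293 reads), 314 kb (80 and 115 reads) and 288 kb (67 and 84 reads) matched vM21 introns of that gene, and Rbfox1 had 66.8 ± 19.6 TPM (SD, n = 2). Nav3, a neuron navigator protein, had 75 far contigs at chr10:109447550-109893420 on the minus strand, of which 72 lay inside introns of 313, 99.9 and 139 kb that matched Nav3 introns of vM21. Among them was the longest far contig, chr10:109548233-109636124, of 87892 bases at a level of 0.949. Nav3 had 20.2 ± 5.91 TPM (SD, n = 2). Tmem178b, a membrane protein gene, was entered by an intron of 203 kb with 236 and 320 reads and had 52.5 ± 17.1 TPM (SD, n = 2).

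Tenm3, a teneurin of synaptic adhesion, was the nearest coding gene of the most far contigs, 997, of which 949 lay upstream on its strand and 949 inside an intron. They were low, with a median of 0.0880 over the 954 contigs upstream on the strand. Of the introns upstream on its strand, that with the most reads was 168 kb long, had 18 and 45 reads and ended just outside the annotated gene. Further out, an intron of 104 kb matched the vM21 gene C130073E24Rik. Zfhx3, a homeodomain and zinc finger factor, had 432 far contigs upstream on its strand, 427 of them in introns, of which those of 192, 133 and 29.2 kb matched Zfhx3 in vM21. Robo2 and Nrg1 differed. Robo2, another Slit receptor, had 522 far contigs upstream on its strand and Nrg1, a ligand of ErbB receptors, had 161, yet none of these lay inside an intron. Not all were nearest to these genes. Of the far contigs nearest to Robo2, 281 lay upstream on its strand, and of those nearest to Nrg1, 128 did. Lipi, on the strand of Robo2, was the nearest coding gene of 241 far contigs downstream on its strand. Which gene these runs belong to was not tested. Robo2 kept 520 kb in both annotations, while Nrg1 spanned 1069 kb in vM21 against 191 kb in Ensembl 65.

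**Figure D3:**
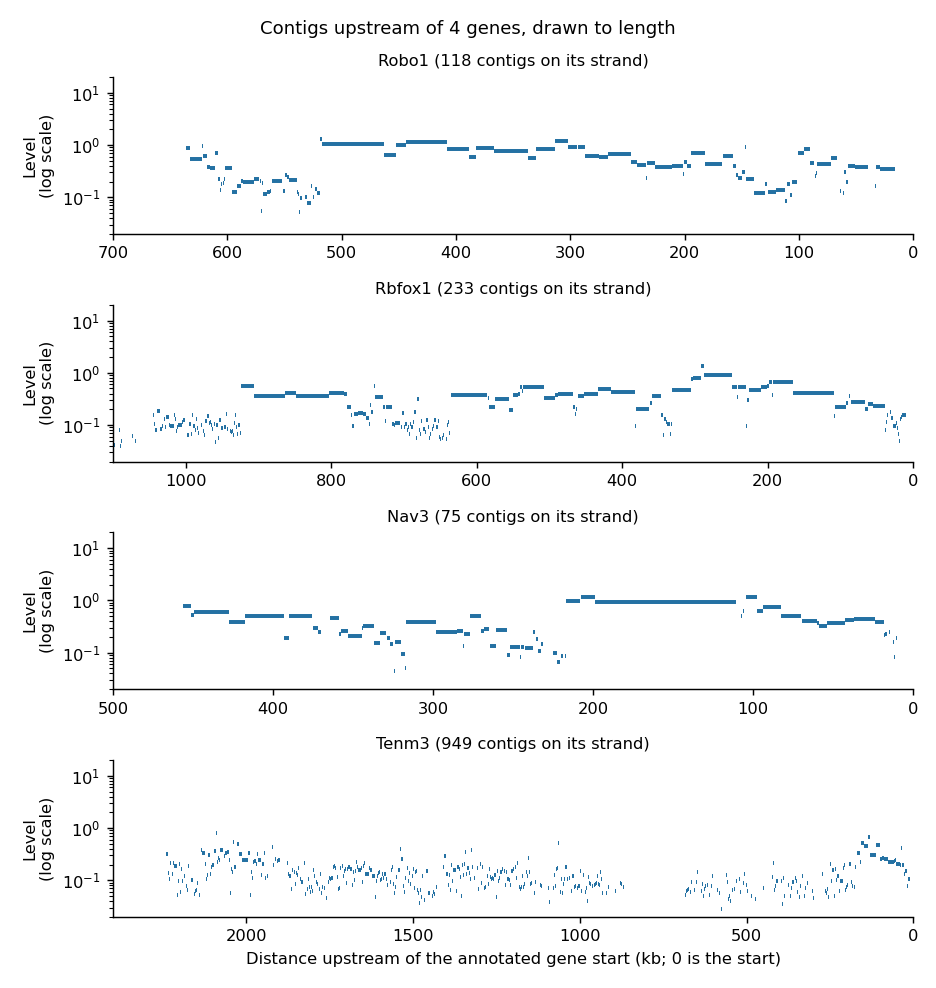
Level (vertical, log scale) of far contigs within 700, 1100, 500 and 2400 kb upstream of Robo1, Rbfox1, Nav3 and Tenm3, on the strand of each gene, drawn to length against the distance from the annotated start in kb (horizontal, start at the right). Contigs of Robo1, Rbfox1 and Nav3 are long and step down and up again along the run, up to levels of 1.30, 1.36 and 1.18, while those of Tenm3 are short and mostly near its median of 0.0880.

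Along long introns the level fell from the 5′ to the 3′ end. For 102 introns of 50 kb or longer with 10 or more reads that lay outside annotated genes and held far contigs, split into 10 equal bins, the mean level of the first 3 bins was above that of the last 3 bins in 77 (75.5%). The median ratio was 2.76 over the 81 introns with coverage in both. The 2489 annotated introns of that size showed the same direction in 88.2%, with a median ratio of 2.48. In the first bin the median level relative to the intron's mean was 1.51 outside genes and 1.54 in annotated introns, and in the last bin it was 0.293 and 0.444. Where introns of a set overlapped on a strand, only the one with the most reads was kept. All introns share the same libraries, so these counts are not independent.

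**Figure D4:**
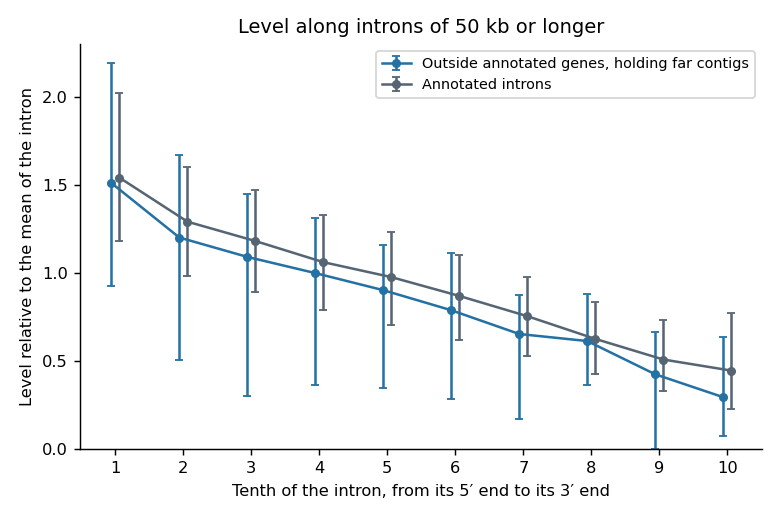
Level relative to the mean of the intron (vertical axis, from 0) in 10 equal bins from the 5′ to the 3′ end (horizontal axis), as medians with quartiles as bars, for 102 introns outside annotated genes (blue) and 2489 annotated introns (grey). Both medians decline along the intron, to 0.293 and 0.444 in the last bin.

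Matching intron lengths named part of the transcripts. Of 4529 junctions tried, 872 (19.3%) had a vM21 intron of exactly the same length on the same strand between the same flanking genes, and 15 (0.331%) had one on the other strand. The matches covered 6460 far contigs (14.6%) and 429 vM21 genes. Of these genes, 171 were already in Ensembl 65, 155 of them protein coding, with 4298 far contigs, and 153 of the 171 had 1 TPM or more in both libraries (medians 8.62 TPM in replicate 1 and 12.1 TPM in replicate 2). The other 258 were not in Ensembl 65, 197 of them noncoding, with 2175 far contigs; 77 of them had a TPM value and 35 reached 1 TPM in both libraries.

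The genes that Ensembl 65 lacked were led by Snhg14, at 372.51 TPM (replicate 1) and 402.98 TPM (replicate 2), with 7 far contigs of 52.5 kb. Gm17750, a long intergenic noncoding RNA, had 152.1 and 93.27 TPM with 20 far contigs at levels up to 6.73. D430019H16Rik, annotated as protein coding, had 74.82 and 101.15 TPM. Its far contigs at chr12:106692009-106735407 on the plus strand reached a level of 19.7, and its intron of 33.5 kb had 683 and 770 reads. In these 3 the libraries differed by less than 2-fold. Gm20754 held the most far contigs of the genes that Ensembl 65 lacked and that reached 1 TPM in both libraries, 211 over 380 kb, at 1.5 and 2.28 TPM.

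Some of the genes that Ensembl 65 lacked differed between the libraries. Of the 38 whose mean was 1 TPM or more, 11 of which were protein coding, 6 (15.8%) were at least 2-fold lower and 1 (2.63%) at least 2-fold higher in replicate 2 than in replicate 1. None of the 11 coding genes was among these. Over all 15240 mm10 genes at that level, the shares were 1.87% lower and 4.55% higher. The median log2 ratio was -0.034 over the 38 genes and 0.013 over all genes. The sets were not matched for the kind of gene or its level, and the part of either in these shares was not tested. Gm29260 had 6.34 TPM in replicate 1, against 1.77 TPM in replicate 2, and Pantr2, which lies beside the cortical transcription factor gene Pou3f3, had 19.16 and 6.44 TPM. Lockd, a noncoding RNA downstream of the cell cycle inhibitor gene Cdkn1b, had 44.65 and 18.66 TPM. The others were Gm28175 (3.41 and 1.46 TPM), 2600014E21Rik (2.17 and 1.0 TPM) and Gm20033 (2.49 and 1.13 TPM), and the higher one was Gm17916 (0.57 and 1.88 TPM). Gm29260, Gm28175 and Pantr2 lie on chromosome 1, with far contigs between 41950880 and 42771484 in mm9, so these 3 lie near each other.

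Neural transcription factor genes differed between the same libraries in both directions. Of 104 at a mean of 1 TPM, 11 (10.6%) were 2-fold lower and 12 (11.5%) were 2-fold higher in replicate 2, against the 1.87% and 4.55% of all genes, and their median log2 ratio was 0.053. Neurod6, a factor of cortical excitatory neurons, had 156 TPM in replicate 1, against 49.2 TPM in replicate 2. En1, a factor of the midbrain and hindbrain, went the other way with 6.15 TPM in replicate 1, against 13.1 TPM in replicate 2. Of 65 neuronal adhesion genes, 9 (13.8%) were 2-fold higher and 0 lower in replicate 2, with a median log2 ratio of 0.61. Their part in the differences of those genes was not tested, and in whole tissue fewer cells of a type and less RNA per cell cannot be told apart. With 1 library on each side these ratios have no replicate check.

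**Figure D5:**
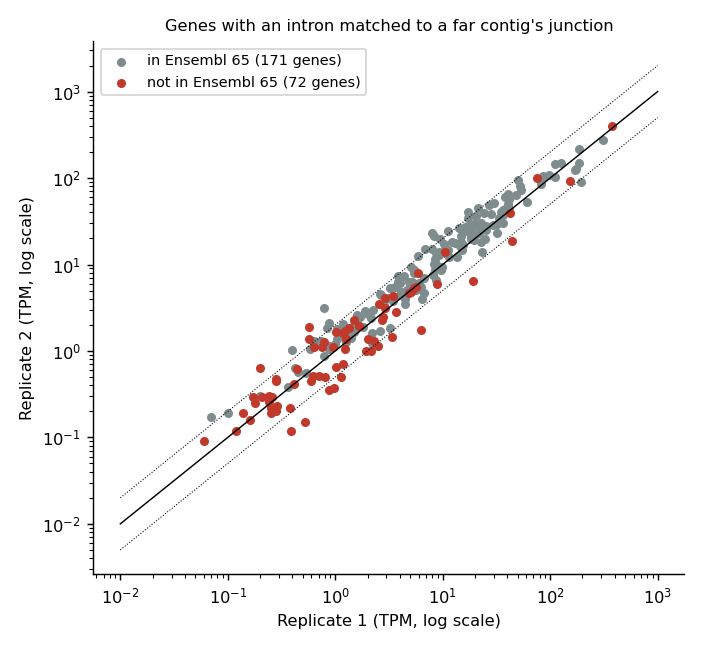
TPM in replicate 1 (horizontal, log scale) and replicate 2 (vertical, log scale) of genes with an intron matched to a far contig's junction, for genes in Ensembl 65 (grey) and genes absent from it (red). The solid line marks equality and the dotted lines a 2-fold difference; Snhg14 stands highest at 372.51 and 402.98 TPM, and genes listed at 0 in either library are not drawn.

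De novo transcript models covered most far contigs at low values. A model on the same strand overlapped 32909 far contigs (74.3%), and an exon of one overlapped 25982 (58.6%). Of the 23133 models, 21686 were themselves more than 10 kb from genes, and 5307 of those (24.5%) had 2 or more exons. The median RPKM was 0.0173 in the first and 0.0174 in the second value, and 243 models had a mean of 1 or more. At a mean of 0.1 or more, the second value exceeded the first 2-fold or more in 118 of 1597 models (7.39%) and fell below it 2-fold or more in 287 (18%), against 6.15% and 15.4% of all 32995 such models, so the shares stood near the background. The largest difference at a mean of 1 or more was that of CUFF.9144 between Camsap2 and ENSMUSG00000086553, with 0.843 and 9.68 RPKM, followed by CUFF.61684 with 45.5 and 285 RPKM over the contig chr6:3150764-3151672, which has no gene to its left and Samd9l 171 kb to its right.

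Neural regulator genes were the nearest coding gene of a larger share of far contigs than of contigs close to genes. The nearest coding gene was a neural transcription factor gene for 5.88% of far contigs, against 1.83% of contigs 1 to 10 kb from a gene and a share of 0.520% of the list among coding genes. For neuronal adhesion genes the shares were 7.36%, 1.09% and 0.322%. The far contigs fell to 77 distinct transcription factor genes and 54 adhesion genes. Counted by cluster the shares were 3.22% and 4.50%. With the nearest gene of any kind the difference was smaller: transcription factor genes took 2.52% of far contigs, against 1.19% of contigs 1 to 10 kb from a gene. For adhesion genes these shares were 1.5%, against 0.701%. By cluster the shares of far contigs were 1.27% and 1.25%. Contigs 1 to 10 kb from a gene were not clustered, so the cluster shares have no like value beside them. Tenm3 accounted for 997 of the 3262 far contigs next to adhesion genes, followed by Tenm2 with 390 and Lsamp with 357. Among transcription factor genes, Pou4f1 drew 229, Zic4 228, Mef2c 194 and Pou3f3 179 of 2606. The width of the intergenic space around each gene was not adjusted for. The lists were chosen with results of these data known and are no independent evidence.

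The position of contigs next to these factors differed by gene. Next to Zic1 and Zic4, neighbouring factors of the dorsal neural tube and cerebellum, 161 of 166 and 226 of 228 far contigs lay on the gene's strand and 0 lay upstream. Next to Tbr1, a factor of early cortical neurons, all 55 lay on its strand with 0 upstream, and next to Sox2, a neural progenitor factor, all 39 did. Next to Pou3f3, 104 of 179 lay upstream on its strand, whereas next to Pou3f4, 4 of 96 lay on its strand. Tbr1 had 49.9 TPM in replicate 1, against 25.7 TPM in replicate 2, and Zic1 had 479 and 490 TPM.

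Genes next to far contigs were somewhat more often expressed than genes at large. Of 5983 distinct nearest genes of any kind with a TPM value, 51.2% had 1 TPM or more in both libraries, against 42.3% of 33068 genes. Of the 4903 nearest coding genes, 74.8% did, against 65.3% of 20175 coding genes. The nearest coding genes had median values of 9.10 and 10.7 TPM in replicates 1 and 2, against 6.79 and 7.39 TPM for all coding genes.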

How the data were processed

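Polyadenylated RNA of 2 libraries of embryonic day 14.5 whole brain was measured; per the labels, the libraries were stranded and paired-end. The contig, junction and de novo model tables combine both replicates on mm9. The contig level is a coverage signal the authors deposited with a reproducibility fraction (low is reproducible); the contig caller, the junction caller and the aligner are not given in the sources used here. Junction read counts were deposited by the authors as 2 values and their sum. De novo models were made with Cufflinks, per the file's source column, and carry 2 deposited RPKM values. Expected counts and TPM per gene on mm10 were deposited by the authors, per the notes beside the files on GENCODE M4. The mm9 gene table repeats each gene, so its 74620 lines gave 37310 genes. The paired values of junctions and models are tied to no replicate number.

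Distances are bases between intervals. Junction ends within 5 bases of a contig on its strand counted as touching it, with a junction reproducibility value of 0.1 or less. Clusters chain contigs with gaps of 10 kb or less. Intron lengths of 70 bases or more were matched to GENCODE vM21 introns in a window of up to 20 Mb set by the 2 nearest shared flanking genes on either side. Introns for the level profile were trimmed by 1 kb at each end and split into 10 bins. Promoters are those of RefSeq whose start lay within 200 bases of a vM21 start. Python 3.11.15, pandas 2.3.3, numpy 2.4.6 and matplotlib 3.10.9 were used, and the interval steps were tested on simulated intervals.

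Both libraries form 1 group, so no test between conditions was made. The far contigs and gene lists were chosen with earlier results of these data known. Named loci were the 20 highest contigs of 200 bases or more, the 15 clusters with the most coverage with their longest contigs, genes between the same neighbours at 1 TPM or more in either library, and the 10 models whose 2 values differed most at a mean of 1 RPKM or more; the text names a part. Other names, the strand orientation, the containment in introns, the intron length match and the level profile were chosen after values were seen. Alternatives changed the reproducibility and distance thresholds, contig length, cluster gap, junction support, TPM threshold and the libraries used. Transcript tables and annotated exon tables were not used here. Values of some single genes are left out of the text, although counts of lists include them.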

Additional observations from a re-analysis of the deposited data

How the results depend on the processing

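No paired analysis was possible because both libraries belong to the same group. Of 87 alternative settings over 15 results, 72 stayed within 1.5 times the reported value. These include, for several results, a setting without mitochondrial and random chromosomes. It removed none of the 44302 far contigs, so its values could not move. With a reproducibility value of 0.01 or less, far contigs numbered 21634 in 6117 clusters, their median length was 999 bases and 7.53% were touched by a junction. Beyond 50 kb from genes there were 19934 in 5084 clusters, and with 200 bases or more there were 7920 clusters. Without a reproducibility threshold on junctions, 29.6% of far contigs were touched, so that share depends on the junctions admitted. With introns of 100 kb or less, 12.7% lay inside one. Junctions of 20 kb or longer ended in a gene in 38.1%, against 14.2% of all. Within 5 kb, 18.1% had a contig on the other strand. Where only genes at 1 TPM in both libraries were admitted as nearest gene of any kind, the share next to neural transcription factor genes was 5.00%, against 2.52%, and next to adhesion genes 7.79%, against 1.5%; counted per cluster the first was 1.27%. Leaving out 1 library gave 1 to 2 genes between the same neighbours, 51.7% to 53.0% of nearest genes at 1 TPM, and 67.5% to 68.3% of far contigs overlapped by a model above 0. Causes were not tested. Contig levels pool the libraries, so their spread between replicates is unknown.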

Other observations

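Several long runs of far contigs had a gene of the other strand as their nearest coding gene. At chr4:23597829-24154422 on the minus strand, 275 far contigs covered 451 kb with a highest level of 0.567, 268 of them inside introns, and the nearest coding gene, Mms22l, a factor of replication fork repair, lay 269 kb away on the other strand. At chr3:17162471-17671874 on the minus strand, 232 far contigs spanned 509 kb, 193 of them inside introns, with Cypt12 177 kb away on the other strand. Cypt12 had 0.050 TPM in replicate 1 and 0 TPM in replicate 2. The run of 202 far contigs at chr3:73022437-73402085 on the plus strand lay 37.6 kb from Bche, which encodes butyrylcholinesterase, on the other strand, and its intron of 320 kb, with 6 and 15 reads, matched the noncoding gene Gm20754.

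Other noncoding genes absent from Ensembl 65 had no TPM value in the deposited tables but many junction reads. A230057D06Rik had 1706 and 1093 reads over 7 matched junctions and 18 far contigs of 57.6 kb. Sfta3-ps had 999 and 282 reads over 9 junctions and 9 far contigs, a larger gap between the 2 values than in A230057D06Rik. E430024I08Rik had 139 and 189 reads over 10 junctions.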
